A study of Mus musculus with 2 samples.

Results

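The genes described here are 10 genes of the actin, myosin and cortical cytoskeleton: Gsn, Cfl1, Coro1a, Actn1, Myo1f, Myo1g, Ezr, Msn, Tln1 and Vim. The comparison sets CD8+CD122+ T cells against CD8+CD122- T cells, both taken by sorting from C57BL/6 mouse spleen. The genes were chosen by symbol, and a probe was taken as a member if either scanner file gave it that symbol or an older one (Vil2 for Ezr, Tln for Tln1). This found 17 probes of the 41174 different probes on the array. Neither file gave Actn1 as a gene name. Its 1 probe carried an accession in place of a name, and a RefSeq table assigns that accession to Actn1, which brought the total to 18 probes. All 10 genes had a tested probe and were among the 21895 genes tested by their brightest probe. Of the 10 genes, 5 had 1 probe, 2 had 2 probes and 3 had 3 probes. Gsn, Myo1f and Myo1g were named only in the file of array 2, where the file of array 1 gave clone accessions for the same probes.

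The labels name no gene deletion and no treatment for either population. The number, age and sex of the mice, and whether cells of several mice were pooled, are not given in the sources used here. The surface marker CD122 is a receptor chain shared by interleukin 2 and interleukin 15, and the series title calls cells that carry it regulatory. RNA of both populations was amplified, and each of 2 Agilent arrays of the two-colour kind took both populations at once. On array 1 the CD8+CD122+ sample was in the red channel (Cy5) and the CD8+CD122- sample in the green (Cy3). Array 2, named a second trial, had the colours the other way. With n = 2 arrays, precision is limited by that number. The labels do not say that the trials used separate mice, so p-values measure only the spread between these 2 arrays, which may be technical.

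Between 69.3% and 83.3% of probes lay well above background per population and array. Il2rb, the gene of CD122, was higher in CD8+CD122+ cells by a log2 ratio of 2.60 on array 1 and 2.34 on array 2. The CD8 chain genes were well above background in every channel and were lower in CD8+CD122+ cells on each array. By the brightest probe the log2 ratios were -0.31 and -0.91 for Cd8a and -0.48 and -0.86 for Cd8b1. The other tested Cd8b1 probe had -0.14 and -0.37. The T cell receptor component gene Cd3e was near 0 on its brightest probe (-0.06 and 0.03), and its other tested probe had -0.20 and -0.15. All log2 ratios below are CD8+CD122+ over CD8+CD122-, after background correction with an offset of 50 added to every signal and loess normalisation within each array. Because of the offset, a dim probe's fold is understated.

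T cells are rounded and stiffened by a shell of actin filaments under the plasma membrane, and they remodel this shell when they crawl, adhere or form a synapse with a target cell. Cofilin and gelsolin sever actin filaments, coronin 1A and alpha-actinin act on filament branching and bundling, and class I myosins tie filaments to the membrane. Ezrin and moesin link membrane proteins to actin, talin couples integrins to it and switches them on, and vimentin forms the intermediate filaments of these cells. Memory and effector T cells are known for faster adhesion and tissue migration than naive T cells.

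The promoter windows of the 3 genes that differed most between the populations are shown because 2 of them, Myo1f and Vim, were higher and Gsn was lower in CD8+CD122+ cells. They run from 250 bases before to 50 bases after an annotated start (RefSeq, build GRCm38.p6), and capitals mark the RUNX site TGTGGT on either strand. Gsn has 3 annotated starts, and the windows of the 2 starts with a match are shown.
Myo1f, chr17:33555457-33555756, + strand: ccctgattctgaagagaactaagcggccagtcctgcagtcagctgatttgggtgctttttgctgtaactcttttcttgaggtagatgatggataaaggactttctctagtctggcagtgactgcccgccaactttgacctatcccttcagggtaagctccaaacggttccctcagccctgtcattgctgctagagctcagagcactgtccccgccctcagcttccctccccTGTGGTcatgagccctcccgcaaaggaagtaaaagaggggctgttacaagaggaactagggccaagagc
Vim, chr2:13574061-13574360, + strand: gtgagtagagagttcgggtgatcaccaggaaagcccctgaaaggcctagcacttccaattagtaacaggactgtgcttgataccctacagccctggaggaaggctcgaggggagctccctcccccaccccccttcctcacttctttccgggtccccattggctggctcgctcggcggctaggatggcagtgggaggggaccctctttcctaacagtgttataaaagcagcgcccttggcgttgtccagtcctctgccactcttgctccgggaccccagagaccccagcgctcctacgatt
Gsn, chr2:35266494-35266793, + strand: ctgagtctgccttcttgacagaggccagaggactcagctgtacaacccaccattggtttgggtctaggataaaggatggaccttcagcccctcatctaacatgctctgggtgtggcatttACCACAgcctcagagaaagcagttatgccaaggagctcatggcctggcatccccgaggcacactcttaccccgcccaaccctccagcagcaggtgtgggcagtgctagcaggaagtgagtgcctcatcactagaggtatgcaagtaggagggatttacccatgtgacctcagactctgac
Gsn, chr2:35282130-35282429, + strand: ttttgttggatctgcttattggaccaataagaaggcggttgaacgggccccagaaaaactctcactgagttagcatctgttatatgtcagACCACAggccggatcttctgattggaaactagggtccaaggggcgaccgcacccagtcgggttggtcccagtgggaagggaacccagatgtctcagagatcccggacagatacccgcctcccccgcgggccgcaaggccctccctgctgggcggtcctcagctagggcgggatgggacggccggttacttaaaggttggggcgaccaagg

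A total of 3 motifs was searched on both strands of the 13 promoter windows of the 10 genes: TGTGGT, bound by RUNX factors, the T-box site TCACACC, bound by T-bet and Eomes, and the CArG box, bound by the serum response factor that is known to drive many actin genes. The site TGTGGT was in 3 of 13 windows, against 16.8% of 32851 windows of all genes. It lay in the Myo1f window at position -19 from the start, counted to the leftmost base, and in 2 Gsn windows at -130 and -160 on the opposite strand, and the Vim window held no match. TCACACC was in 0 of 13 windows (3.98% of all windows) and the CArG box in 0 of 13 (1.63% of all windows). No 2 matches overlapped in these windows. A match describes letters in a window and no binding was measured.

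Of the 10 genes, Myo1f was more than 2-fold higher and Gsn more than 2-fold lower in CD8+CD122+ cells on each array. Vim was at least 1.5-fold higher on both arrays. The other 14 of 17 tested probes had mean log2 ratios between -0.46 and 0.12, and the lowest of these belonged to Coro1a. No member passed limma's test: 0 of 17 probes were called at an adjusted p under 0.05, as were 0 of all 30794 tested probes (0% of the background), also when a trend of the variance with intensity was fitted. The smallest adjusted p of limma among the members was 0.307, against 0.145 among all probes. At an unadjusted p under 0.05, limma found 5 of 17 member probes (Gsn, Myo1f, Vim and both probes of Coro1a) and 1884 of 30794 probes (6.12%). Calls here therefore rest on size on both arrays and carry no p-value. These counts were 1 of 17 probes at 2-fold higher and 1 of 17 at 2-fold lower, against 0.253% and 0.0812% of all tested probes. At 1.5-fold they were 2 of 17 higher and 1 of 17 lower, against 0.630% and 0.296%. The members were chosen with earlier results of these data known, so their counts beside the shares of all probes, here and below, are descriptive. In sorted populations measured in bulk, fewer cells that carry a transcript and less transcript per cell cannot be told apart.

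**Figure D1:**
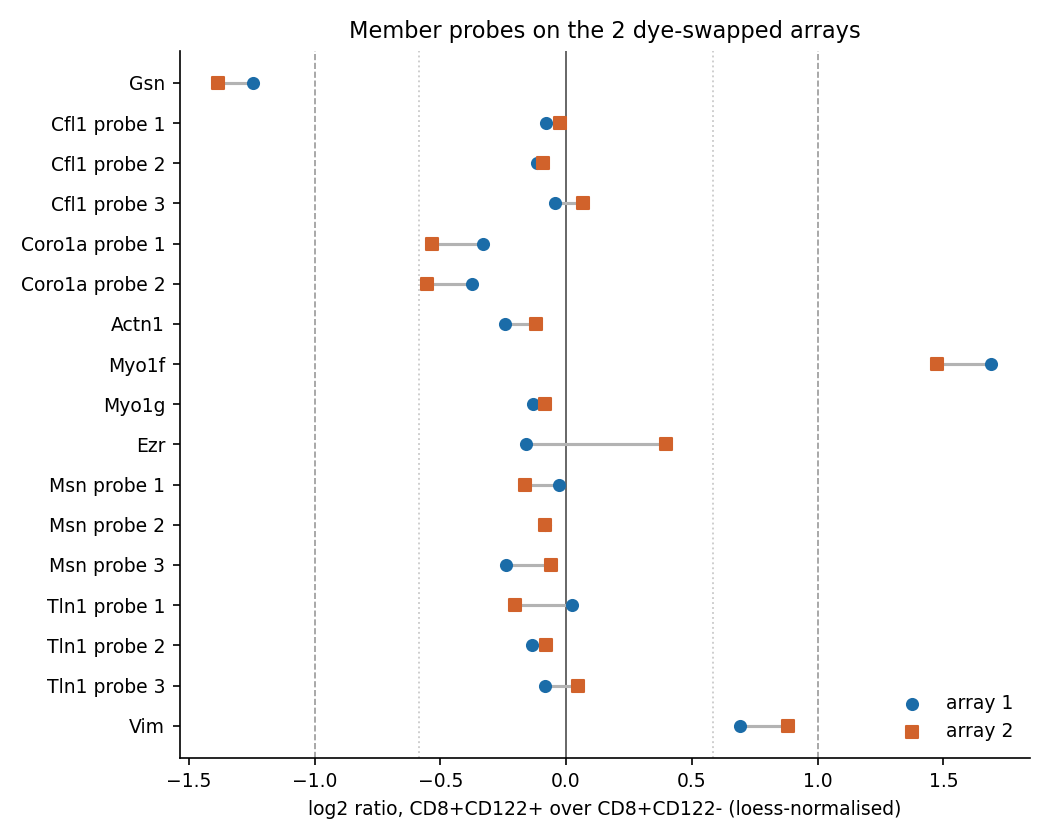
Log2 ratios of CD8+CD122+ over CD8+CD122- for the 17 tested member probes, grouped by role, with circles for array 1 and squares for array 2 joined by a grey line. Dashed lines mark 2-fold and dotted lines 1.5-fold. Gsn lies beyond 2-fold to the left and Myo1f beyond 2-fold to the right on both arrays, Vim lies between 1.5-fold and 2-fold, and the Ezr symbols fall on opposite sides of 0.

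Gsn encodes gelsolin, which severs actin filaments and caps their ends when calcium rises. Its probe (A_51_P241465) had normalised intensities of 458 on array 1 and 383 on array 2 in CD8+CD122+ cells, against 1086 and 998 in CD8+CD122- cells. Both CD8+CD122+ signals lay below both CD8+CD122- signals, although the dyes were exchanged between the arrays. The log2 ratio was -1.25 on array 1 and -1.38 on array 2, a mean of -1.31 ± 0.10 (SD, n = 2 arrays; 2.49-fold lower). It was the probe with rank 21 from the lowest mean ratio among 30794 tested probes. limma gave an unadjusted p of 0.000406 and an adjusted p of 0.307. With median centring in place of loess, array 1 gave -0.92 and array 2 -1.77, so that Gsn no longer passed 2-fold on both arrays.

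Cfl1 encodes cofilin 1, which severs aged actin filaments and is switched on after T cell receptor and CD28 signals. Its brightest probe (A_52_P748958) gave 3223 and 2615 in CD8+CD122+ cells, against 3408 and 2661 in CD8+CD122- cells. The 2 populations differed by less than the 2 arrays did. The mean log2 ratio was -0.05 ± 0.04 (SD, n = 2 arrays), with -0.08 on array 1 and -0.02 on array 2. A probe 497 bases upstream gave a mean of -0.10 ± 0.02. One more probe (A_52_P150654) gave -0.04 and 0.07, but only the file of array 1 names it Cfl1. The file of array 2 names it B930037P14Rik and places it on the opposite strand of chromosome 19, 1509 bases from the brightest probe, so whether it reads Cfl1 is uncertain. Cfl2, the muscle cofilin, had -0.39 on array 1 and 0.44 on array 2.

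Coro1a encodes coronin 1A, an actin regulator that T cells need for survival and migration. Its brighter probe (A_51_P300277) gave 10784 and 6184 in CD8+CD122+ cells, against 13551 and 8938 in CD8+CD122- cells. CD8+CD122+ cells were lower within each array, and the values of the populations overlapped across arrays. The log2 ratio was -0.33 on array 1 and -0.53 on array 2, a mean of -0.43 ± 0.14 (SD, n = 2 arrays; 1.35-fold lower). The other probe (A_51_P300281), 913 bases upstream, gave -0.38 and -0.55, a mean of -0.46 ± 0.13. The probes thus gave similar ratios at different places of 1 transcript, and they share the gene and both arrays. Neither passed 1.5-fold on both arrays, and limma's adjusted p was 0.690 and 0.656. With median centring the brighter probe gave 0.31 on array 1 and -1.01 on array 2, of opposite signs.

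Other coronins named by rule were closer to 0. Coro1b, a broadly expressed coronin, had a mean log2 ratio of -0.04, Coro1c of 0.10 and Coro7, a Golgi coronin, of 0.01. The 6 coronin genes besides Coro1a had mean ratios between -0.05 and 0.31, and Coro1c was higher on each array (0.08 and 0.11).

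**Figure D2:**
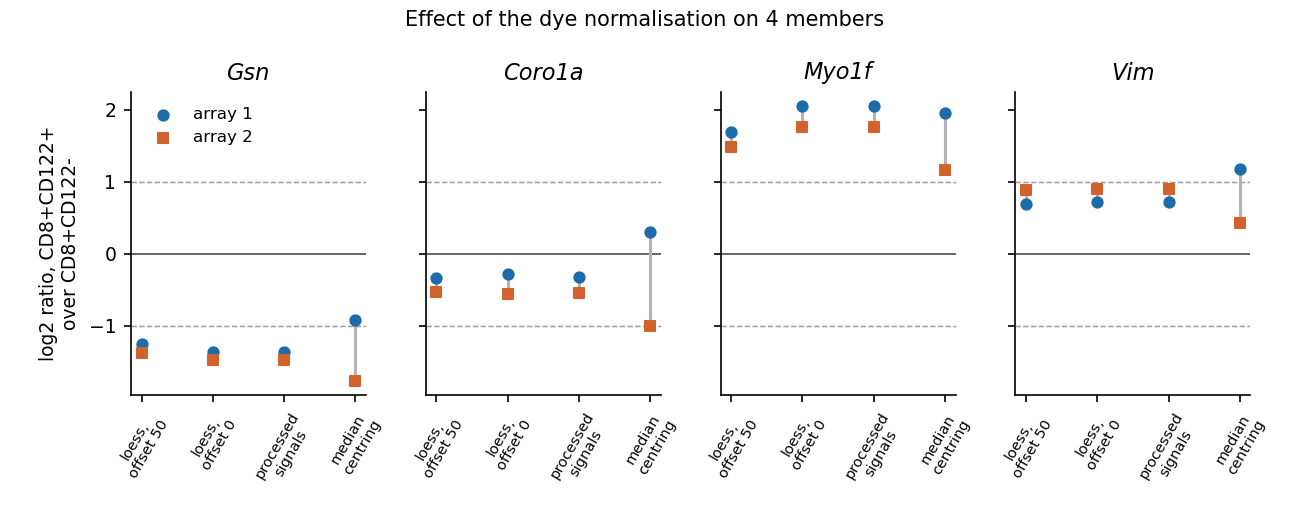
Log2 ratios on array 1 (circles) and array 2 (squares) for 4 members under 4 ways of correcting background and dye, with dashed lines at 2-fold. Under loess and with the deposited processed signals the arrays lie close together. With median centring they part, and Coro1a then has opposite signs (0.31 and -1.01).

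Actn1 encodes alpha-actinin 1, which bundles actin filaments and binds integrin tails. Its probe (A_51_P347862) gave 159.8 and 139 in CD8+CD122+ cells, against 189 and 151 in CD8+CD122- cells. CD8+CD122+ cells were lower on each array, and the ranges overlapped across arrays. The mean log2 ratio was -0.18 ± 0.09 (SD, n = 2 arrays; adjusted p of limma 0.841). The spots were only 2.68 to 3.14 times the local background, and without the offset the mean was -0.25. Actn4, the other widely expressed alpha-actinin, had a mean of 0.05.

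Myo1f encodes myosin 1F, a class I myosin of blood cells that links the membrane to actin, known from neutrophils and NK cells. Its probe (A_52_P113190) gave intensities of 671 and 529 in CD8+CD122+ cells, against 208 and 190.0 in CD8+CD122- cells on arrays 1 and 2. The populations did not overlap. The log2 ratio was 1.69 on array 1 and 1.48 on array 2, with a mean of 1.58 ± 0.15 (SD, n = 2 arrays; 3.23-fold and 2.78-fold higher by array) and rank 60 from the highest. limma's adjusted p was 0.307. The CD8+CD122- spot on array 1 was 3.03 times its local background, so its ratio is among those the offset understates. Without the offset the mean was 1.90, or 3.74-fold.

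Myo1g encodes myosin 1G, a class I myosin abundant in lymphocytes that sets membrane tension. Its probe (A_51_P333253) gave 3534 and 5784 in CD8+CD122+ cells, against 3868 and 6125 in CD8+CD122- cells. Both arrays put CD8+CD122+ cells slightly lower, and the difference between arrays exceeded the difference between populations. The log2 ratios were -0.13 and -0.08, with a mean of -0.11 ± 0.03 (SD, n = 2 arrays; adjusted p of limma 0.885). The signs of Myo1f and Myo1g were opposite on each array, and the difference between these 2 genes was not tested.

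Further class I myosins named by rule were near 0. Myo1c had a mean log2 ratio of 0.01, Myo1d of -0.03 and Myo1e of -0.17, each of opposite signs on the 2 arrays. The Myo1e values were -0.64 on array 1 and 0.30 on array 2, the widest spread of these 3 genes.

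Ezr, which encodes ezrin, was the member with the widest difference between arrays. Its probe (A_51_P413348) gave 2891 and 5622 in CD8+CD122+ cells, against 3230 and 4264 in CD8+CD122- cells. CD8+CD122+ cells were lower on array 1 and higher on array 2. The log2 ratios were -0.16 and 0.40, a mean of 0.12 ± 0.39 (SD, n = 2 arrays; adjusted p of limma 0.939), and no direction can be given. Of all tested probes, 7.49% differed more between the arrays than Ezr did, where the median absolute difference was 0.12.

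Msn encodes moesin, the most abundant protein of this linker family in T cells. Its brightest probe (A_52_P558411) gave 404 and 438 in CD8+CD122+ cells, against 411 and 491 in CD8+CD122- cells. The ranges overlapped. The mean log2 ratio was -0.10 ± 0.10 (SD, n = 2 arrays), and the other probes, 970 and 1563 bases upstream, had -0.08 and -0.15. The 3 probes were negative on both arrays, with limma's adjusted p between 0.884 and 0.908. Rdx, which encodes radixin, the remaining protein of the family, had -0.12 on array 1 and -0.43 on array 2, a mean of -0.27 ± 0.22.

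Tln1 encodes talin 1, which binds integrin tails and opens them for ligand. Its brightest probe (A_51_P446865) gave 1136 and 793 in CD8+CD122+ cells, against 1117 and 912 in CD8+CD122- cells. The sign differed between arrays, with 0.02 on array 1 and -0.20 on array 2, a mean of -0.09 ± 0.16 (SD, n = 2 arrays). Probes 1226 and 2214 bases upstream gave means of -0.11 and -0.02, with spots no more than 3.60 times the background. Tln2, the gene of the second talin, was on the array, but its 1 probe did not pass the filter on dim probes and was not tested.

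Vim encodes vimentin, the intermediate filament protein of T cells and of many mesenchymal cells. Its bright probe (A_51_P392687) gave 4157 and 4955 in CD8+CD122+ cells, against 2572 and 2687 in CD8+CD122- cells. Each CD8+CD122+ signal was above each CD8+CD122- signal. The log2 ratio was 0.69 on array 1 and 0.88 on array 2, with a mean of 0.79 ± 0.13 (SD, n = 2 arrays; 1.73-fold higher) and an adjusted p of 0.525 in limma. With median centring it was 1.17 and 0.42, so that array 2 no longer passed 1.5-fold. A further Vim probe (A_52_P287532), 5466 bases upstream by the coordinates in the scanner file, was not well above background in either population on either array and was not tested. Its spots were between 1.04 and 1.60 times the local background.

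**Figure D3:**
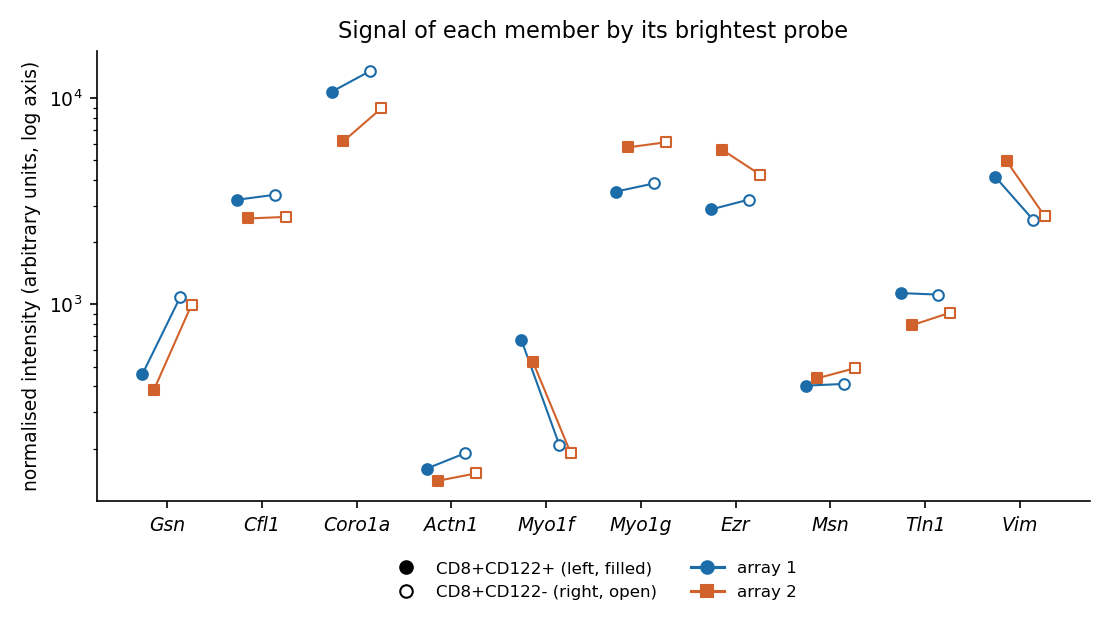
Normalised intensity (log axis, arbitrary units) of each member by its brightest probe, with CD8+CD122+ to the left (filled) and CD8+CD122- to the right (open) of each pair, joined by a line per array. The lines of Gsn climb and those of Myo1f and Vim descend from left to right on both arrays, and the Ezr lines run in opposite directions. Levels of different genes come from different probes and cannot be compared.

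**Figure D4:**
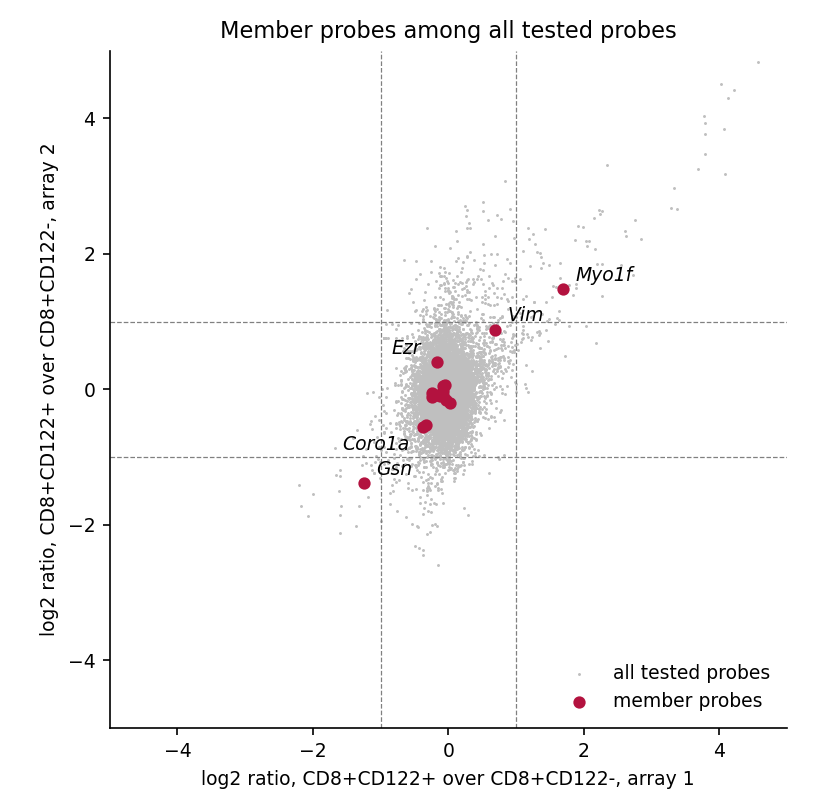
Log2 ratio on array 1 (horizontal) against array 2 (vertical) for all 30794 tested probes (grey) and the 17 tested member probes (red), with dashed lines at 2-fold. Gsn lies in the lower left and Myo1f in the upper right corner beyond 2-fold, and Vim lies between the cloud and the upper right 2-fold lines. The Coro1a probes lie to the lower left of 0, with 2.10% and 1.81% of tested probes at a lower mean ratio. The other members lie in the cloud around 0.

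By sign alone, 11 of 17 member probes had a ratio under 0 on each array, 2 had one over 0 on each, and 4 had mixed signs. The background was 25.6% under 0, 27.8% over 0 and 46.6% mixed among all tested probes. Probes of 1 gene are not independent. By the brightest probe of each gene, 6 of 10 were under 0 on each array, 2 over 0 and 2 mixed, against 24.1%, 29.1% and 46.8% of 21895 tested genes. The median log2 ratio was -0.10 over the member probes and 0.00 over all tested probes. These counts depend on the dye correction: with median centring 4 of 17 member probes were under 0 on each array and 11 were mixed, where 15.1% of all probes were under 0.

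The same comparison was made for 150 other genes of the actin, myosin and cortical cytoskeleton, of which 149 were on the array and 138 tested by their brightest probe. Zyx and Myo6 passed 1.5-fold on the higher side on each array, and Dock8 on the lower side. This gives 2 of 138 higher (1.45%) and 1 of 138 lower (0.725%), against 0.731% and 0.365% among all tested genes. limma called 0 of the 138 at an adjusted p under 0.05, and 21 (15.2%) had an unadjusted p under 0.05, against 6.48% of all tested genes. Of these 21, 8 were on the higher side (5.8% of the 138, against 2.9% of all genes) and 13 on the lower (9.42%, against 3.59%). The list was chosen with earlier results of these data known, so these shares are descriptive. It was not matched to all genes for brightness, and the offset shrinks the ratios of dim probes. Whether the list differs from all genes was not tested. The median over the 138 was -0.01, against 0.01 over all genes.

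Zyx encodes zyxin, a protein of adhesion sites that recruits actin assembly factors. It gave 7116 and 6673 in CD8+CD122+ cells, against 3698 and 3351 in CD8+CD122- cells, with log2 ratios of 0.94 and 0.99 (mean 0.97 ± 0.04, SD, n = 2 arrays; 1.96-fold higher). The populations did not overlap, and limma's adjusted p was 0.335. Myo6 encodes myosin 6, which walks toward the minus end of actin. It had 0.66 and 0.78 on its brighter tested probe and a mean of 0.04 on the other, so its probes disagree. Dock8 encodes an activator of the GTPase CDC42 that T cells need to keep their shape in tissue. Its brightest probe gave 422 and 404 in CD8+CD122+ cells, against 849 and 999 in CD8+CD122- cells, with log2 ratios of -1.01 and -1.30 (2.23-fold lower), and its other 4 tested probes had means between -0.45 and -0.01. With the mean of all probes of a gene, Myo6 and Dock8 no longer passed 1.5-fold on both arrays. With median centring Dock8 passed it, and Zyx (1.48 on array 1, 0.53 on array 2) and Myo6 (0.77 and 0.56) did not.

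By role, 0 of 5 genes of actins and actin-related proteins passed 1.5-fold in either direction, with Actb at -0.24 ± 0.16 and Actg1 at 0.18 ± 0.12 (SD, n = 2 arrays). None of 22 genes of actin turnover and severing and none of 22 nucleation genes passed it, with medians of -0.01 and 0.02. The nucleation genes, which include the Arpc subunits of the Arp2/3 complex, ranged from -0.12 to 0.33. Its subunit genes Actr2 and Actr3, counted here with the actins, had means of -0.01 and -0.21. Among 13 crosslinker and bundler genes 8 were negative on both arrays and 3 positive, with a median of -0.09. Of 11 further membrane linker genes 5 were negative on both arrays, 2 positive and 4 opposite. Several genes passed 1.5-fold on array 2 and not on array 1. Among them Evl, an actin elongation factor gene, had -0.43 and -0.93, Spn, which encodes the sialophorin CD43 that ERM proteins hold, -0.25 and -1.01, and Rhoc 0.46 and 0.92; these 3 were chosen after their values were seen.

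**Figure D5:**
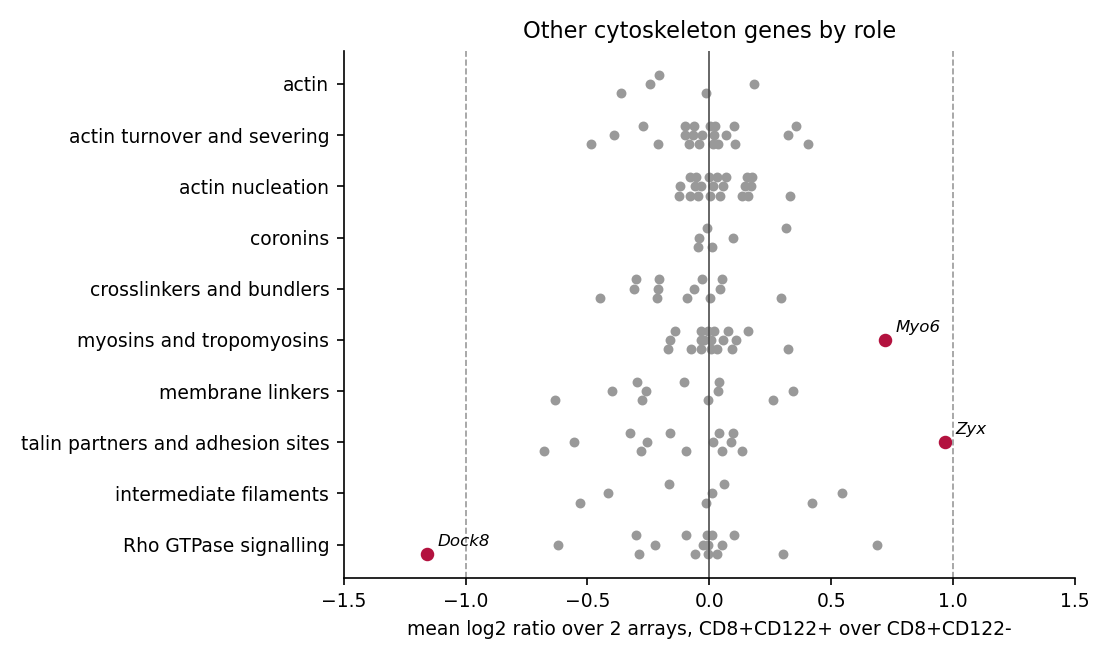
Mean log2 ratio over the 2 arrays, CD8+CD122+ over CD8+CD122-, of 138 other cytoskeleton genes by role, 1 point per gene, with dashed lines at 2-fold. Red points with names mark genes at least 1.5-fold apart in the same direction on both arrays, which are Zyx, Myo6 and Dock8.

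Vim, Myo1f and Gsn are also expressed in other cells of the spleen, so markers of those cells were read on the same arrays. Of 5 B cell, 5 myeloid, 4 NK cell, 6 platelet, 4 erythroid and 5 stromal marker genes on the array, 0 passed 1.5-fold on each array in 1 direction by the brightest probe. Those that could be tested were 5, 4, 3, 3, 2 and 5, in the same order. Among all tested genes 0.731% passed 1.5-fold on the higher side and 0.365% on the lower, so 0 among so few marker genes is near that share. Of all 28 tested probes of the marker genes 1 passed it, against 0.630% higher and 0.296% lower among all tested probes. This was a dimmer probe (A_51_P303424) of the myeloid marker gene Itgax, which encodes the integrin chain CD11c. It gave 137 and 174 in CD8+CD122+ cells, against 89.5 and 83.0 in CD8+CD122- cells, with log2 ratios of 0.61 and 1.07 in the direction of Myo1f and Vim. The brighter Itgax probe gave 0.01 and 0.05. The NK cell markers summed to 873 and 767 in CD8+CD122+ cells, against 843 and 741 in CD8+CD122- cells. Ncr1, which defines NK cells, was not well above background in any channel. The myeloid markers summed to 768 and 958 in CD8+CD122+ cells, against 671 and 885 in CD8+CD122- cells, and within them Lyz2 had log2 ratios of 0.77 and 0.33. The stromal markers summed to 729 and 723 in CD8+CD122+ cells, against 753 and 730 in CD8+CD122- cells. Within them Pecam1, on a dim probe, had log2 ratios of -0.32 and -0.41, in the direction of Gsn. The other stromal markers had mean log2 ratios between -0.05 and 0.10. The platelet markers summed to 538 and 520 in CD8+CD122+ cells, against 521 and 526 in CD8+CD122- cells. Erythroid markers summed to 1383 and 2674 in CD8+CD122+ cells, against 1305 and 2428 in CD8+CD122- cells, so they differed more between arrays than between populations. B cell markers summed to 831 and 694 in CD8+CD122+ cells, against 869 and 796 in CD8+CD122- cells. Within them Cd79b had log2 ratios of -0.20 and -0.76, also in the direction of Gsn. The other B cell markers had mean log2 ratios between 0.02 and 0.17. The 6 T cell markers summed to 33633 and 31497 in CD8+CD122+ cells, against 43003 and 53795 in CD8+CD122- cells. Their median log2 ratio was -0.31, in the direction of Gsn and Coro1a. Besides the CD8 chain genes, Cd3g had -0.39 and -0.60 and Cd3d -0.004 and -0.26. By their brightest probes Cd3e (-0.06 and 0.03) and Cd4 (0.09 and -0.12) had opposite signs on the arrays. The platelet gene Gp1ba was not well above background in any channel. Each of these sums includes the offset of 50 per signal. The part of other cells, or of the lower T cell markers, in the differences of Myo1f, Vim, Gsn and Coro1a was not tested.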

How the data were processed

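RNA of CD8+CD122+ and CD8+CD122- cells was measured on 2 two-colour arrays with exchanged dyes, per the labels. Scanner files came from Agilent Feature Extraction, named in the submitters' processing notes, array 1 in version A.7.5.1, array 2 in version 8.1.1.1 by the headers. Per the file headers they hold linear intensity of spot and background, 0 or 1 flags, processed signals (spatial detrending on, LOWESS settings given) and the red over green log10 ratio. The deposited value table equals that log10 ratio sign-turned for array 1 and unturned for array 2. By the labels it thus runs from CD8+CD122- on top to CD8+CD122+ below, against the direction of this text. Its columns have a median of 0, and their centring is unknown. A genome build was not given in the sources used here, so probe distances are in the file's own coordinates.

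limma 3.58.1 (R 4.3.3) was used for normexp background correction with offset 50 and for loess, in which controls had weight 0. Control and outlier spots were left out, repeat spots averaged, and a probe was tested if well above background in the same population on both arrays (30794 probes, of which a gene's brightest stood for it). Levels are per channel after Aquantile scaling between arrays. limma (lmFit and eBayes, two-sided, 1 residual degree of freedom) was run over all tested probes with Benjamini-Hochberg adjustment. Rules of size, 2-fold and 1.5-fold, had to hold on each array with 1 sign. The steps were tested on simulated data. RefSeq tables (GRCm38.p6) named 32088 probes (77.9%). All members, every other list gene past 1.5-fold (at most 8 each way) and fixed relatives were named, except for items not reported here. No gene was named by likeness of pattern, since 2 arrays of 1 contrast hold none beyond size and sign. The members, lists and tests were chosen with earlier results of these data known.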

Additional observations from a re-analysis of the deposited data

How the results depend on the processing

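For the 10 members, the mean log2 ratio of the brightest probe kept its sign under normexp without the offset, the deposited processed signals, median centring, no filter on dim probes, a stricter filter, the mean of all probes and the series value table. Not all of these settings could turn a sign. Ratios were normalised before filtering, so the filters left these ratios as they were. The series value table gave the same ratios as the processed signals. The mean of all probes could differ only for Cfl1, Coro1a, Msn and Tln1, which had more than 1 tested probe. Median centring moved the 2 dye-swapped arrays in opposite directions, which largely cancels in their mean, so a kept sign there says little. Under it 6 of the 10 members had opposite signs on the 2 arrays, against 2 with loess. Gsn ran from -1.42 to -1.31, Myo1f from 1.56 to 1.91, Vim from 0.79 to 0.81 and Coro1a from -0.45 to -0.35. On a single array the sign of the mean was turned for Ezr (-0.16 on array 1) and Tln1 (0.02 on array 1). Median centring left 0 members at least 2-fold lower on both arrays (1 with loess), 1 member at least 1.5-fold higher (2 with loess) and 0 other cytoskeleton genes at least 1.5-fold higher. Without the offset, and with the processed signals, 6 other cytoskeleton genes were at least 1.5-fold higher and 3 lower, against 2 and 1. With the mean of all probes of a gene they were 1 and 0. On 1 array alone, 2 to 8 of these genes were 1.5-fold higher and 4 to 8 lower. Shares of all tested genes past these folds are not given here for the other settings. The counts therefore cannot be set against the shares of the main setting. limma called 0 probes under all settings run, and with 1 array it has no residual degrees of freedom and was not run. Each ratio is taken within 1 array and so already pairs the populations, and no further replicate block can be added with 1 ratio per array. Signals near background, as for Actn1 and the upstream probes of Msn and Tln1, limit what can be seen.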
